A study of Mus musculus with 24 samples.

Results

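Cd5, Cd6, Cd2, Cd27 and Cd28 are surface receptors that T cells carry beside the T cell receptor, and their messenger RNA was followed through 30 min of receptor stimulation in thymocytes that lack the transcription factors Sap, Elk or both. All probe sets (groups of short probes for 1 transcript) annotated to these 5 symbols were taken, which gave 6 of the 45037 non-control probe sets on the Affymetrix Mouse430_2 array, for 5 of the 18193 genes it names. Cd28 has 2 probe sets, 1417597_at and 1437025_at. The other members have 1 each: 1418353_at for Cd5, 1451910_a_at for Cd6, 1418770_at for Cd2 and 1452389_at for Cd27. Cells were CD4 and CD8 double-positive (DP) thymocytes, sorted from the thymus of male Black 6J mice aged 8 weeks, rested, and spun onto plates that were coated with anti-CD3 or left bare. The 24 arrays come from 12 mice, with 3 mice each of the genotypes SapKO, ElkKO, ElkSapKO (Elk/Sap KO in the labels) and wild type (WT), and each mouse gave 1 array after anti-CD3 and 1 untreated. Here Sap is taken to be Elk4, also called SAP-1, and Elk to be Elk1. Both are ternary complex factors, which bind DNA together with serum response factor. The labels do not say how either gene was inactivated or in which cells.

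DP thymocytes are selected on how strongly their T cell receptor is engaged. CD5 dampens that signal, and its amount on thymocytes is known to follow the strength of the signal a cell has received; CD6 is a related receptor of the same scavenger receptor cysteine-rich family that binds ALCAM. CD2 is an adhesion receptor that binds CD48 in the mouse. CD28, which binds CD80 and CD86, and CD27, a receptor of the tumour necrosis factor family that binds CD70, deliver costimulatory signals.

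The genes lie on chromosomes 19 (Cd5 and Cd6), 3 (Cd2), 6 (Cd27) and 1 (Cd28), and in the order of RefSeq genes Cd5 and Cd6 are neighbours with 1 long non-coding RNA gene listed between them. RefSeq promoter windows were at hand for 2 of the 5 members, Cd5 and Cd27. They are shown because ternary complex factors are ETS proteins, whose DNA sites hold the core GGAA, and because Cd5 had the largest change of the members. Only bases outside the annotated gene are printed, 5′ to 3′ on the strand of the gene, with GGAA or its complement TTCC in capitals. The Cd5 stretch is chr19:10739027-10739224 and the Cd27 stretch chr6:125237137-125237277, both on the minus strand of GRCm38.p6.
Cd5: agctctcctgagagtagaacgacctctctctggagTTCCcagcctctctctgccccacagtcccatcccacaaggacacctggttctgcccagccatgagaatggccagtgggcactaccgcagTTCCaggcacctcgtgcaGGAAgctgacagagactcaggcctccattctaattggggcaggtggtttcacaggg
Cd27: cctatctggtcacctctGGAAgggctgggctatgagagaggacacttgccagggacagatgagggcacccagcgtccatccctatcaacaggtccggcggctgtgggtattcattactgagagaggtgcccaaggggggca

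In the whole windows, which run from 250 bases before to 50 bases after the annotated start, GGAA was found 6 times for Cd5 and 2 times for Cd27, counting both strands. At least 1 match was present in 96% of the 32851 RefSeq windows of 300 bases. The longer form GGAAGT, which contains GGAA, occurred once for Cd5, in the part not printed, and not for Cd27, against 23.8% of windows. The CArG box of serum response factor and the Egr site GCGTGGGCG were found in neither window, and in 1.63% and 0.612% of all windows. These are matches of letters in a short window and say nothing about binding.

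Signals are log2 values made by the submitters with RMA, a method that corrects background, equalises the arrays and summarises the probes of a probe set. They can be compared between arrays for 1 probe set, not between probe sets. Each difference was tested with limma across all 45037 probe sets, with Benjamini-Hochberg adjustment over all of them, and an adjusted p under 0.05 is the limit for saying that a member rose or fell. Errors of differences are standard errors, and other errors are SD over 3 mice. The number of arrays limits the precision, and fewer cells of a type cannot be told apart from less RNA per cell in such bulk samples.

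The cells carried the markers of their label. All 15 DP genes measured, among them Cd4, Cd8a and Cd3e, were at 9.12 log2 or above in every array. The highest array of any of the 7 granulocyte markers was 6.22, and of the 4 erythroid markers 5.82. Some markers of other cell types had signal in every array: Ly6d (10.73 to 11.64) and Cd79b (7.17 to 8.15) from the B cell list, Cst3 (9.56 to 10.17) and Cd74 (6.15 to 8.27) from the macrophage and dendritic cell list, Gzma (8.63 to 10.01) from the innate list and Pecam1 (8.01 to 9.32) from the stromal list. Elk4 signal was lower by log2 −3.42 in untreated SapKO (adjusted p = 3.37e-07) and by −3.42 in untreated ElkSapKO (adjusted p = 6.86e-07). Elk1 was near background in every group, at 4.03 to 5.23, and does not check the Elk label. Stimulation was seen in the activation marker Cd69, which rose by 5.59 ± 0.28 averaged over genotypes (adjusted p = 2.27e-11). All 8 genes used to check stimulation, Cd69 among them, rose in that average. After anti-CD3, 5 of the 8 were called lower in ElkSapKO than in WT (median −1.19), beside 4.28% of all probe sets. Untreated, 1 of the 8 was (median −0.59), beside 4.16%. The excess of Actb signal at the 3′ over the 5′ end, a measure of RNA degradation, was 0.17 to 0.24 log2 in SapKO, 0.38 to 0.65 in ElkKO, 0.55 to 1.05 in ElkSapKO and 0.15 to 0.36 in WT. A bacterial spike-in, dap, was at 6.00 to 6.60 in 8 arrays of SapKO and WT and at 8.81 to 9.66 in the other 16, which include all of ElkKO and ElkSapKO. Relative log expression spread most widely in untreated ElkSapKO mouse 2 (interquartile range 0.78, against 0.18 to 0.38 elsewhere), which sets that array apart.

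Anti-CD3 raised Cd5 about 3-fold within 30 min, the largest change among the 5 genes, and raised Cd28 and Cd27 by smaller amounts. Averaged over the 4 genotypes, Cd5 rose by 1.64 ± 0.14 log2, or 3.12-fold (adjusted p = 1.26e-07), and both Cd28 probe sets rose, by 0.47 ± 0.06 and 0.55 ± 0.09. Cd27 rose by 0.35 ± 0.08. Cd6 and Cd2 did not pass the test. Thus 4 of 6 probe sets were called, all upward, where 1.02% of all probe sets were called upward, or 2.14% of those with a mean signal of 6 log2 or more, as all 6 have. The median difference was 0.49 over the 6 probe sets and 0.003 over all probe sets.

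Cd5, the inhibitory receptor, was higher after stimulation in each of the 12 mice, by 0.48 to 2.66 log2. Its signal in SapKO mice 1, 2 and 3 was 9.03, 8.78 and 9.04 after anti-CD3, against 6.83, 6.97 and 6.39 untreated. In ElkKO mice it was 8.18, 8.22 and 8.08 after anti-CD3, against 7.70, 7.21 and 6.66 untreated. The stimulated ElkKO values lie close together, while the untreated ones span about 1 log2 unit. In ElkSapKO mice Cd5 was at 7.84, 7.77 and 8.07 after anti-CD3, against 5.50, 6.16 and 6.20 untreated. In WT mice it was at 8.50, 9.05 and 8.07 after anti-CD3, against 7.68, 6.62 and 7.01 untreated. WT mouse 2 had the lowest untreated and the highest stimulated value of its genotype. In every genotype all 3 stimulated values lay above all 3 untreated ones. That separation in that direction was shown by 6.38% of all probe sets in SapKO, 6.47% in ElkKO, 3.29% in ElkSapKO and 5.51% in WT.

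**Figure D1:**
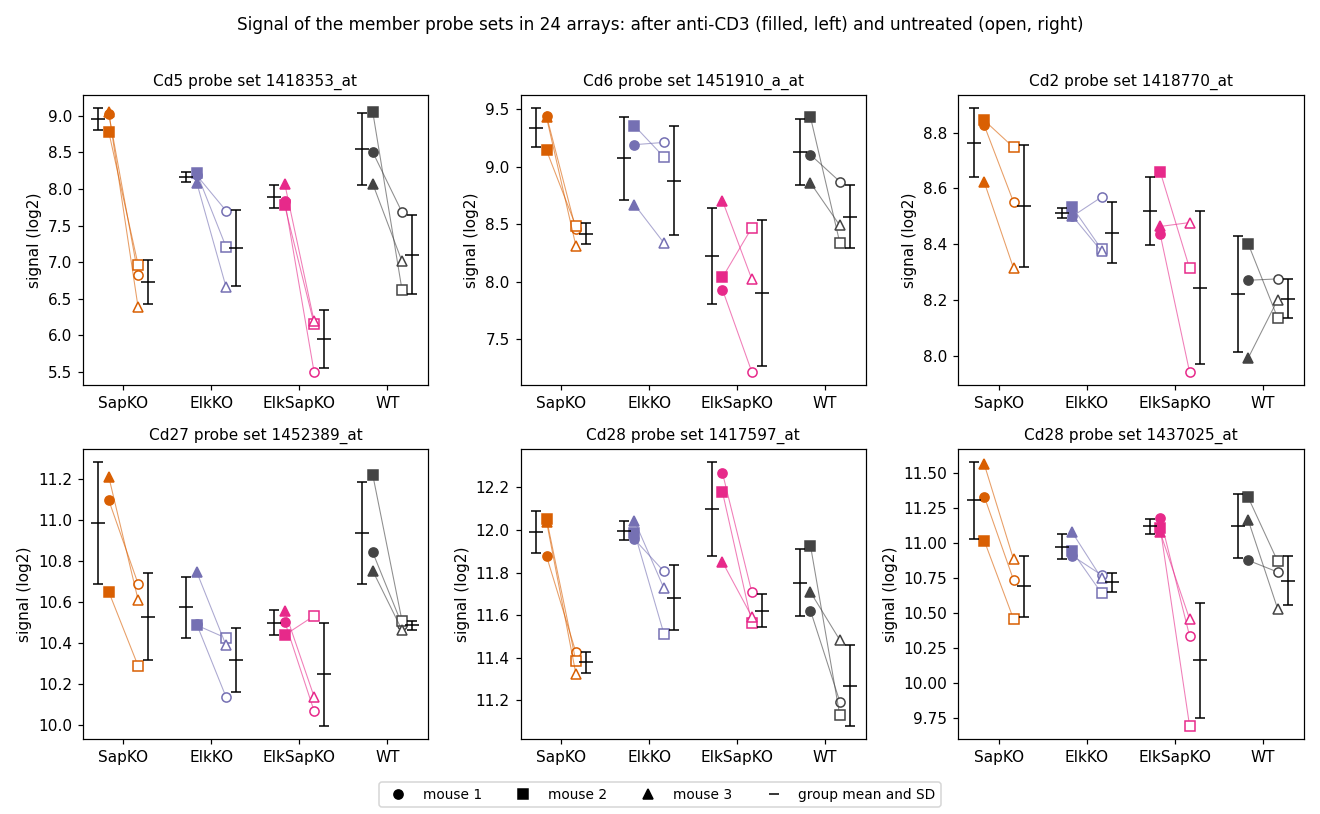
Signal (log2) of each member probe set in 24 arrays, with filled symbols after anti-CD3 to the left of open untreated symbols, lines joining arrays of 1 mouse and black bars for the group mean and SD (n = 3). For Cd5 all lines go down from anti-CD3 to untreated, with the untreated ElkSapKO arrays lowest at 5.50 to 6.20.

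The rise of Cd5 was 2.22 ± 0.28 log2 in SapKO (4.67-fold, adjusted p = 0.000165) and 1.94 ± 0.28 in ElkSapKO (3.84-fold, adjusted p = 0.0009). In WT it was 1.44 ± 0.28 (2.71-fold, adjusted p = 0.0215). The difference in ElkKO, 0.97 ± 0.28, was not called (adjusted p = 0.599). The WT call did not hold when untreated mouse 2 (adjusted p = 0.205) or 3 (0.134) or stimulated mouse 1 (0.0735) or 2 (0.17) was left out, nor when the model held WT alone (0.308). The ElkSapKO call was lost when the model held ElkSapKO alone (adjusted p = 0.142). Within the arrays with high dap Cd5 differed by 1.81 in the single SapKO mouse and 1.06 in the single WT mouse, and within those with low dap by 2.43 and 1.63 (2 mice each). With 1 or 2 mice per class no order of genotypes is read from these values.

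In the order of group means, Cd5 ran from 8.95 ± 0.15 in stimulated SapKO through 8.54 ± 0.49 in stimulated WT, 8.16 ± 0.07 in stimulated ElkKO and 7.89 ± 0.16 in stimulated ElkSapKO to 7.19 ± 0.52 in untreated ElkKO, 7.10 ± 0.54 in untreated WT, 6.73 ± 0.30 in untreated SapKO and 5.95 ± 0.39 in untreated ElkSapKO. Stimulated SapKO overlapped with stimulated WT and that with stimulated ElkKO, and untreated ElkKO with untreated WT and that with untreated SapKO. The order of these neighbours is within the spread. Stimulated SapKO (8.78 to 9.04) and stimulated ElkKO (8.08 to 8.22), which are not neighbours, did not overlap. That pair was not tested, and the share of all probe sets separated in the same way was not counted. The Cd5 probe set ranked 43rd by size of rise and 52nd by p among all probe sets in the averaged response.

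Cd6, the family relative and chromosomal neighbour of Cd5, had a smaller and less uniform difference. Its signal in SapKO mice was 9.44, 9.14 and 9.43 after anti-CD3, against 8.46, 8.48 and 8.31 untreated, with no overlap. In ElkKO mice it was 9.19, 9.36 and 8.67 after anti-CD3, against 9.21, 9.09 and 8.34 untreated, and the groups overlapped. In ElkSapKO mice it was 7.93, 8.04 and 8.70 after anti-CD3, against 7.21, 8.47 and 8.02 untreated, where mouse 2 went down. WT mice had 9.10, 9.43 and 8.86 after anti-CD3, against 8.87, 8.34 and 8.49 untreated, so the lowest stimulated value was just under the highest untreated one. Cd6 was higher after anti-CD3 in 10 of 12 mice, a count that rests on the mouse numbers (in ElkKO the arrays of mice 1 and 2 were more alike crosswise). The averaged difference of 0.50 ± 0.14 was not called (adjusted p = 0.102). It was called with mouse as a replicate block (adjusted p = 0.0275), with array weights (0.63, adjusted p = 0.000339) and when the untreated ElkSapKO array that stood apart was left out (0.57, adjusted p = 0.0155). By genotype it was not called, with adjusted p from 0.564 in SapKO to 1 in ElkKO. In SapKO it was called when the model held SapKO alone (0.92, adjusted p = 0.00253) and with array weights (0.96, 0.00515), and in ElkSapKO with array weights (0.84, 0.0372). Array weights called 2443 of the 45037 probe sets in the average, 472 in SapKO and 1005 in ElkSapKO. Over the 24 arrays Cd6 correlated with Cd5 at a Pearson r of 0.80, a description in which the arrays of 1 mouse share an animal. This was not particular to Cd6. Cd5 correlated at 0.80 with 1437025_at of Cd28 too, at 0.72 with Cd27, 0.58 with 1417597_at and 0.49 with Cd2.

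Cd28, the costimulatory receptor, rose on both of its probe sets. On 1417597_at the signal in SapKO mice was 11.88, 12.05 and 12.04 after anti-CD3, against 11.43, 11.38 and 11.33 untreated. In ElkKO mice it was 11.96, 11.99 and 12.04 after anti-CD3, against 11.81, 11.51 and 11.73 untreated. Stimulated and untreated values did not overlap in either genotype. ElkSapKO mice had 12.27, 12.18 and 11.85 after anti-CD3, against 11.71, 11.56 and 11.59 untreated. WT mice had 11.62, 11.93 and 11.71 after anti-CD3, against 11.19, 11.13 and 11.48 untreated. Each of the 12 mice was higher after anti-CD3 on this probe set, by 0.15 to 0.80, and the adjusted p of the averaged rise of 1.39-fold was 7.33e-05.

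The second Cd28 probe set, 1437025_at, was also higher in all 12 mice, by 0.08 to 1.41. Its signal in SapKO mice was 11.33, 11.02 and 11.56 after anti-CD3, against 10.73, 10.46 and 10.88 untreated. ElkKO mice had 10.91, 10.94 and 11.08 after anti-CD3, against 10.77, 10.64 and 10.75 untreated. ElkSapKO mice had 11.18, 11.11 and 11.08 after anti-CD3, against 10.34, 9.70 and 10.46 untreated, where the array that stood apart holds the lowest value. In WT mice it was at 10.88, 11.33 and 11.16 after anti-CD3, against 10.79, 10.87 and 10.53 untreated. Stimulated values lay above untreated ones in each genotype, although in WT by a narrow gap. The averaged rise was 1.47-fold (adjusted p = 0.000679). A rise in all 12 mice, seen for Cd5 and both Cd28 probe sets, was shown by 1.07% of all probe sets.

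Within genotypes each Cd28 probe set had 1 call, which depended on the fit; whether the probe sets differ was not tested. 1417597_at rose in SapKO (0.61 ± 0.12, adjusted p = 0.0352), a call that was lost with mouse as a replicate block (0.0813), with arrays centred on their medians (0.081) and without any 1 of the 6 SapKO arrays (0.0685 to 0.227). It was also lost without the stimulated array of ElkKO mouse 1 (0.0523) or 2 (0.0524). 1437025_at rose in ElkSapKO (0.96 ± 0.18, adjusted p = 0.0144), but was not called when the untreated mouse 2 (0.72, adjusted p = 0.0757) or the stimulated mouse 1 (0.0845) or 2 (0.0748) was left out, or when the model held ElkSapKO alone (1). With array weights 1437025_at was also called in SapKO (0.62, adjusted p = 0.00429) and 1417597_at in ElkSapKO (0.44, 0.0413), and the mean of both probe sets was called in ElkSapKO (0.72, 0.00365). Array weights called 472 of the 45037 probe sets in SapKO and 1005 in ElkSapKO. In WT the differences were 0.48 ± 0.12 (adjusted p = 0.194) and 0.39 ± 0.18 (0.978).

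Cd27, the receptor of the tumour necrosis factor family, was higher after anti-CD3 in 11 of 12 mice. In SapKO mice its signal was 11.10, 10.65 and 11.21 after anti-CD3, against 10.69, 10.29 and 10.61 untreated. In ElkKO mice it was 10.49, 10.49 and 10.75 after anti-CD3, against 10.14, 10.42 and 10.39 untreated. SapKO groups overlapped, because mouse 2 was low in both states, and ElkKO groups did not. ElkSapKO mice had 10.50, 10.44 and 10.56 after anti-CD3, against 10.07, 10.53 and 10.14 untreated, with mouse 2 again going down. WT mice had 10.84, 11.22 and 10.75 after anti-CD3, against 10.49, 10.51 and 10.46 untreated. The averaged rise of 1.28-fold (adjusted p = 0.022) was lost without the untreated array of SapKO mouse 2 (0.0511), the stimulated array of SapKO mouse 1 (0.0524) or 3 (0.0552), or the untreated array of ElkKO mouse 1 (0.0509). By genotype the differences ran from 0.25 in ElkSapKO to 0.46 in SapKO and none was called.

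Cd2, the adhesion receptor, changed least. In SapKO mice its signal was 8.83, 8.84 and 8.62 after anti-CD3, against 8.55, 8.75 and 8.31 untreated. In ElkKO mice it was 8.50, 8.53 and 8.50 after anti-CD3, against 8.57, 8.38 and 8.37 untreated. Both pairs of groups overlapped. ElkSapKO mice had 8.43, 8.66 and 8.46 after anti-CD3, against 7.94, 8.31 and 8.48 untreated. WT mice had 8.27, 8.40 and 7.99 after anti-CD3, against 8.28, 8.14 and 8.20 untreated. Cd2 was higher in 8 mice and lower in 4. The averaged difference of 0.15 ± 0.07 (95% interval 0.002 to 0.29) was not called (adjusted p = 0.639), except with array weights (0.23, adjusted p = 0.0253), which also called it in ElkSapKO (0.59, 0.0162). That setting called 2443 of the 45037 probe sets in the average and 1005 in ElkSapKO.

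**Figure D2:**
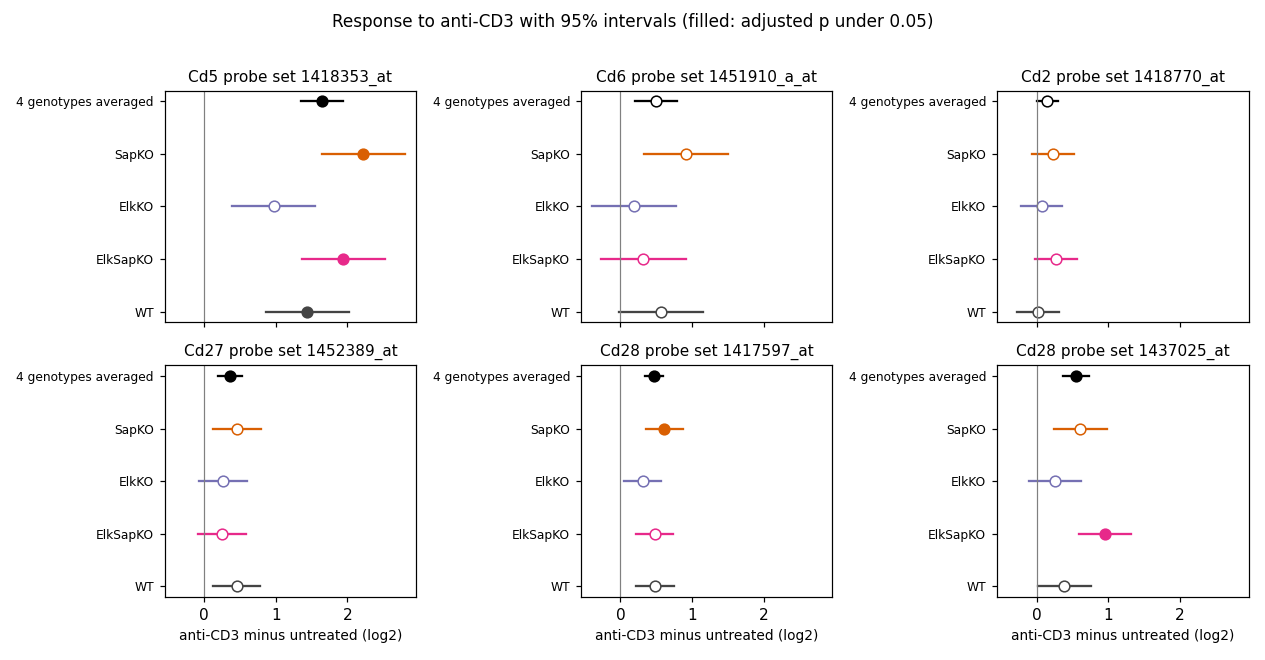
Anti-CD3 minus untreated (log2) for each member probe set, averaged over genotypes and in each genotype, with 95% intervals from limma. Filled points passed an adjusted p of 0.05: Cd5 in SapKO, ElkSapKO, WT and the average, Cd27 and both Cd28 probe sets in the average, and 1 Cd28 probe set each in SapKO and ElkSapKO.

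By genotype, calls among the 6 probe sets numbered 2 in SapKO, 0 in ElkKO, 2 in ElkSapKO and 1 in WT, all upward, beside 0.24%, 0.144%, 0.244% and 0.229% of all probe sets. At an unadjusted p under 0.05 in limma the numbers were 5 in SapKO, 2 in ElkKO, 3 in ElkSapKO and 4 in WT. The share of all probe sets under that limit was not counted, so these numbers are not compared between genotypes. The 2 in ElkKO, Cd5 and 1417597_at of Cd28, ranked 169th and 553rd by p among all probe sets. The members' median differences were 0.61 in SapKO, 0.26 in ElkKO, 0.40 in ElkSapKO and 0.47 in WT.

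Whether loss of Sap or Elk changed the size of these responses was tested as a difference between responses. None of the 6 probe sets passed in any knockout against WT, nor in the test of whether the single knockouts add up to the double one, contrasts in which limma called 0.00222% (SapKO), 0% (ElkKO), 0.00222% (ElkSapKO) and 0% (additivity) of all probe sets. At an unadjusted p under 0.05 only 1437025_at of Cd28 stood out, in ElkSapKO (0.57, 95% interval 0.05 to 1.09, adjusted p = 0.729). The response of Cd5 was larger than in WT by 0.78 ± 0.39 in SapKO (95% interval −0.04 to 1.60) and by 0.50 ± 0.39 in ElkSapKO (−0.32 to 1.32), and smaller in ElkKO (−0.47 ± 0.39, −1.29 to 0.35). Leaving out single arrays gave 0.50 to 1.04 in SapKO, 0.22 to 0.76 in ElkSapKO and −0.75 to −0.21 in ElkKO. In SapKO and ElkSapKO the ends of the range came without untreated WT mouse 1 and without stimulated WT mouse 2, and in ElkKO without untreated WT mouse 1 and untreated ElkKO mouse 1. The 95% intervals include differences of about 1 log2 unit, so equal responses were not shown. The 3 comparisons share the WT arrays. The WT response of Cd5 itself varied between mice, with an SD of 0.87 over changes of 0.82, 2.43 and 1.06, against an SD of 0.36 to 0.47 in the knockouts.

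Knockout and WT cells were then compared in each state. The 1 member called was Cd5 in untreated ElkSapKO, which was 2.22-fold lower than in untreated WT (log2 −1.15 ± 0.28, adjusted p = 0.0204), with no overlap. In that comparison 4.16% of all probe sets were called lower, or 9.33% of those with a mean signal of 6 or more. It was not called when untreated mouse 1 of WT (−0.86, adjusted p = 0.147) or of ElkSapKO (−0.93, 0.0822) was left out, with a term for dap (−1.03, 0.108), or when the model held these 6 arrays alone (0.397). Within the arrays of high dap, where WT has 1 mouse, the difference was −1.06 (adjusted p = 0.8). After anti-CD3 Cd5 differed by −0.65 ± 0.28 in ElkSapKO (adjusted p = 0.174), and by −0.18 within the arrays of high dap. None of the 6 probe sets was called in the other comparisons, where the share of all probe sets called in either direction was 0.0888% in SapKO and 0.0933% in ElkKO untreated, and 0.0755% in SapKO, 0.144% in ElkKO and 6.36% in ElkSapKO after anti-CD3.

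Some markers of mature T cells and maturation were lower in the same comparison. These receptors are also found on mature T cells. Of 13 measured, 5 fell in untreated ElkSapKO and none rose, among them Ccr7 (−1.39, adjusted p = 0.00422), S1pr1 (−1.23, 0.00955) and Il7r (−1.69, 0.0197). This stands beside 4.16% of all probe sets called lower, or 9.33% of those with a mean of 6 or more. The mean level of the 13 per array was 7.02 to 7.22 log2 in untreated ElkSapKO and 7.69 to 8.05 in untreated WT. Not all 13 are particular to mature cells, as Ccr9 was at 12.50 to 13.02 in every array. The DP genes Cd3g, Cd8a and Cd3e fell too, by 0.48, 0.52 and 0.76 (3 of 15, beside the same shares of probe sets). The Actb measure of RNA quality was 0.58 to 0.81 in untreated ElkSapKO and 0.18 to 0.25 in untreated WT. Of the markers of other cell types, Fcgr3 from the macrophage and dendritic cell list was higher (0.53) and Pecam1 from the stromal list lower (−0.79), both called. Fcgr3 was near background in every array, at 3.69 to 4.85. Pecam1 was at 8.01 to 9.32, while Cdh5 from the same list was at 3.19 to 3.89, so Pecam1 is not read as a sign of endothelium. The part of these in the lower Cd5 signal was not tested.

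Cd6 was also lower in ElkSapKO, without passing the test. After anti-CD3 it differed from WT by −0.91 ± 0.28 (adjusted p = 0.0587), with no overlap, as did 11.3% of all probe sets in that direction. Untreated it differed by −0.67 ± 0.28 (0.164). The untreated difference was −1.31 with array weights (adjusted p = 2.98e-05), and −0.32 without untreated ElkSapKO mouse 1 to −0.95 without untreated ElkSapKO mouse 2, neither called. The stimulated difference was called with dim probe sets left out (adjusted p = 0.0347), with arrays centred on their medians (0.0383), with array weights (0.00731), and without any of 4 single arrays (0.0194 to 0.0467). Cd27 differed by −0.44 ± 0.16 after anti-CD3 (adjusted p = 0.109) and −0.24 ± 0.16 untreated. Both were called with array weights, at −0.52 (adjusted p = 0.04) and −0.40 (0.021). That setting called 5725 of the 45037 probe sets after anti-CD3 and 15241 untreated, against 2864 and 2404 without weights. In ElkKO, Cd27 also differed from WT in that direction, by −0.36 ± 0.16 after anti-CD3 (adjusted p = 0.354) and −0.17 ± 0.16 untreated (0.899).

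The Cd28 probe sets pointed in opposite directions in untreated ElkSapKO. 1417597_at differed from WT by 0.35 ± 0.12 (adjusted p = 0.0996) and 1437025_at by −0.57 ± 0.18 (adjusted p = 0.0627), and neither overlapped with WT. Such separations were shown by 7.38% of probe sets upward and 9.63% downward. With array weights, a setting that called 15241 of the 45037 probe sets, both were called, still with opposite signs (0.42, adjusted p = 0.00325, and −0.39, 0.0186). No direction is therefore given for Cd28 in that comparison. 1417597_at was also above WT in untreated ElkKO (0.41 ± 0.12, adjusted p = 0.238), without overlap, as were 8.83% of probe sets.

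Cd2 was nominally higher in SapKO than in WT, at 0.54 ± 0.14 after anti-CD3 (adjusted p = 0.476) and 0.33 ± 0.14 untreated (adjusted p = 1). The SapKO and WT groups did not overlap in either state, beside 5.54% and 4.25% of probe sets higher without overlap. ElkKO was also above WT without overlap, by 0.29 ± 0.14 after anti-CD3 and 0.24 ± 0.14 untreated. Untreated, 8.83% of probe sets were higher in ElkKO without overlap. Stimulated ElkSapKO was above WT without overlap too (0.30 ± 0.14), while untreated ElkSapKO overlapped with WT (0.04 ± 0.14). The share of probe sets higher without overlap is not given for stimulated ElkKO or ElkSapKO, so those separations are not read as a result. None of these differences was called. In the order of means the 2 SapKO groups of Cd2 came first and the 2 WT groups last, at 8.76 ± 0.12 and 8.54 ± 0.22 in SapKO and 8.22 ± 0.21 and 8.20 ± 0.07 in WT. Each of the 8 groups overlapped with its neighbours, so the order of neighbours is within the spread.

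**Figure D3:**
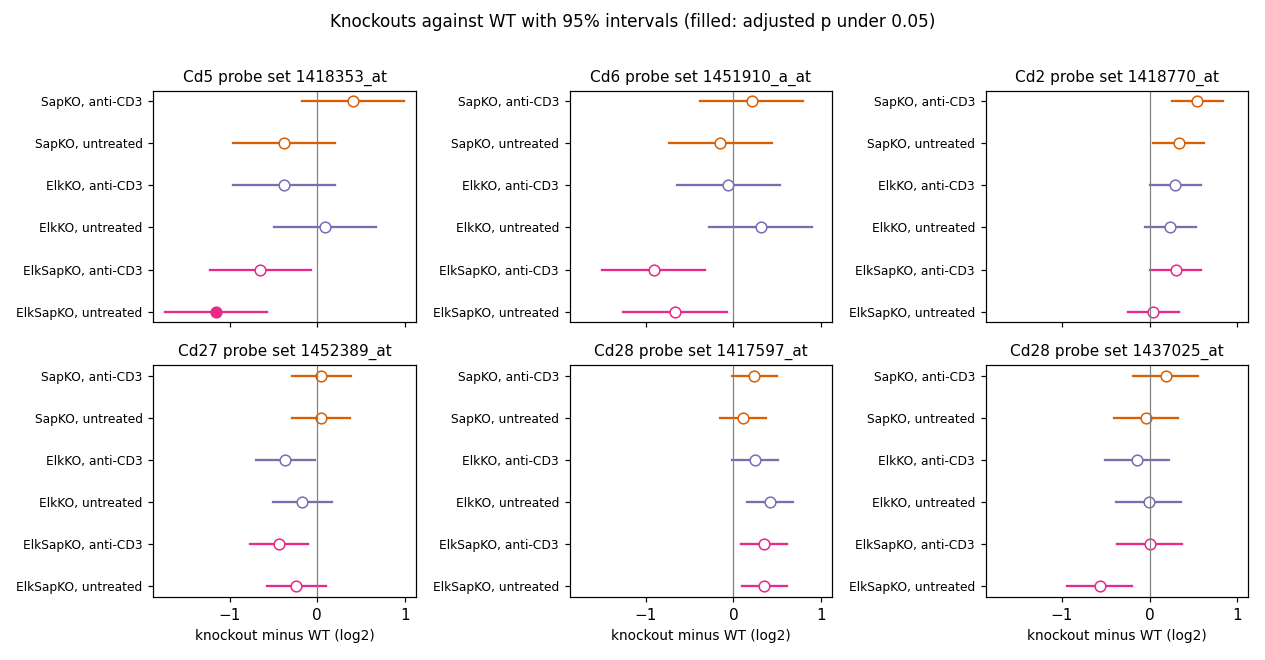
Knockout minus WT (log2) for each member probe set after anti-CD3 and untreated, with 95% intervals from limma. The filled point, Cd5 in untreated ElkSapKO at −1.15, is the call with an adjusted p under 0.05.

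Other receptors that raise or dampen T cell activation were taken from a list to set the members beside them. Of 24 measured genes, 3 rose in the averaged response and none fell: Tnfrsf1b, a receptor for tumour necrosis factor (0.77 ± 0.09, adjusted p = 1.81e-05), Ctla4, an inhibitory receptor that shares the ligands of Cd28 (0.54 ± 0.12, 0.0153), and Icos, a relative of Cd28 (0.62 ± 0.15, 0.0324). The other 21 were not called, with differences from −0.21 (Slamf1) to 0.22 (Btla), and the median over the list was 0.02. In WT alone none of the 24 was called. In untreated ElkSapKO against WT 1 of the 24 fell, Ly9 (−1.03, adjusted p = 0.0045), beside 4.16% of all probe sets. After anti-CD3 3 of the 24 fell in ElkSapKO, beside 4.28%: Lag3 (−0.98), Ly9 (−0.70) and Tnfrsf18 (−0.38).

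**Figure D4:**
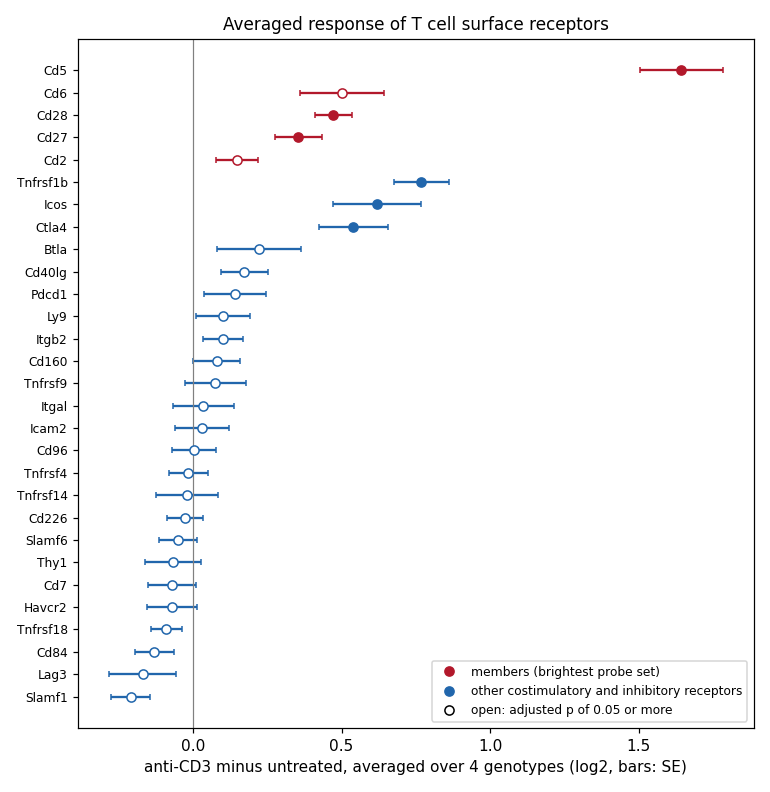
Anti-CD3 minus untreated averaged over 4 genotypes (log2, with SE) for the brightest probe set of each member in red and of 24 other costimulatory and inhibitory receptors in blue. Cd5 at 1.64 lies farthest right, and 3 of the blue genes, Tnfrsf1b, Icos and Ctla4, have filled points for an adjusted p under 0.05.

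Ligands of the members were mostly at background in these cells and none of 7 changed in the averaged response. Cd48, the partner of Cd2, had a mean of 8.15 and differed by 0.04 ± 0.08. Alcam, Cd80, Cd86, Cd70, Cd72 and Cdcp1 had means of 3.58 to 4.80.

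Cytoplasmic partners of the receptors were counted too. Of 18 measured partners of Cd5, Cd6 and Cd2, none changed in the averaged response (median 0.004), and of 16 partners of Cd28 and Cd27, 2 rose. These were Traf1, an adaptor of tumour necrosis factor receptors (0.96 ± 0.15, adjusted p = 0.000379), and Bcl10, which links antigen receptors to NF-kB (0.29 ± 0.07, 0.0357). Against WT, 6 of the 18 fell in untreated ElkSapKO and none rose, with a median of −0.48. In that comparison 4.16% of all probe sets, or 9.33% of those with a mean of 6 or more, were called lower. Among the 6 were the ubiquitin ligase Cblb (−0.83, adjusted p = 0.00868), the adaptor Dok2 (−0.65, 0.0201) and the kinase Zap70 (−0.60, 0.0344). After anti-CD3 7 of the 18 fell in ElkSapKO, where 4.28% of all probe sets, or 10.1% of those with a mean of 6 or more, were called lower. The phosphatase Ptpn6, which has been linked to inhibition by CD5, was among these 7 (−0.82, adjusted p = 0.00941). Of the 16 partners of Cd28 and Cd27, 2 fell untreated, Grb2 (−0.62) and the kinase Prkcq (−0.53), and 4 fell after anti-CD3, beside the same shares of probe sets for each state.

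The genes with the pattern most like each member were taken over 24 arrays from 8360 genes with a mean signal of 6 or more, by Pearson r. For Cd5 these were Srfbp1 (0.93), Tnfrsf1b (0.93) and Per1 (0.92), and for Cd6 they were Gch1 (0.94), Selplg (0.92) and Iscu (0.89). Cd2 had no close match, with Pttg1 (0.69), Igtp (0.66) and Uqcrq (0.61) as the nearest. Cd27 was nearest to Myl6, Yrdc and Ppan (0.86, 0.86 and 0.85). For Cd28 the nearest were Ddx3x (0.92), 1700019D03Rik (0.91) and Gm34006 (0.88) on 1417597_at, and Trav6-3 (0.90), Nkiras1 (0.89) and Selenok (0.89) on 1437025_at. The 2 Cd28 probe sets had no gene in common among these and correlated with each other at 0.51. After the 8 group means were removed, the r of members with these nearest genes ran from 0.39 (Cd2 and Uqcrq) to 0.94 (Cd6 and Gch1). For Cd5 it was 0.71 with Srfbp1, 0.53 with Tnfrsf1b and 0.75 with Per1.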

How the data were processed

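The deposited table holds log2 values for 45101 probe sets, made with RMA in the affy package per the submitters' processing notes, which give no version or genome build. It had no value column outside the 24 samples. After removal of 64 controls, 45037 probe sets remained. GEO's platform annotation gave 34945 of them 1 symbol, 932 several and 9160 none; where a gene needs 1 value, its brightest probe set was used.

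Differences were tested with limma 3.58.1 (R 4.3.3), fitting group means for the 8 groups to all arrays (16 residual degrees of freedom) and adjusting two-sided p by Benjamini-Hochberg within each contrast. The code was tested on simulated data. The mouse numbers in the labels pair the arrays of each animal, and deviations from group means correlated at −0.03 to 0.85 between paired arrays over 8361 genes (above 0.1 in 11 of 12 mice). In ElkKO, mice 1 and 2 correlated at 0.10 and 0.20 as labelled but at 0.66 and 0.69 crosswise, so within-mouse changes were also computed with these numbers exchanged. The model had no block, and mouse as a fixed or random replicate block was an alternative. Other alternatives were 1 or averaged probe sets per gene, leaving out dim probe sets (mean under 6 log2), median centring, array weights, fewer arrays in the model, the dap classes (limit 8 log2) and leaving out arrays. Promoter windows, chromosomes and gene order come from RefSeq (GRCm38.p6). Figures were drawn with matplotlib 3.10.9.

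The members and gene lists were chosen with earlier results of these data known. Genes named from a list were those called in the averaged or WT response (up to 5), the targeted genes, and genes used to check stimulation; for each member the 3 genes of highest correlation were named. Genes named in comparisons of ElkSapKO with WT, for their level or at the end of a range were chosen after their values were seen.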

Additional observations from a re-analysis of the deposited data

How the results depend on the processing

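The averaged rise of Cd5 was called under every alternative that gives it, with 1.58 to 1.72 log2 when single arrays were left out, and none of the called values of the members reversed. For its WT response, leaving out single arrays gave 1.18 to 1.73, only the arrays compared gave 1.44 (adjusted p = 0.308), high dap 1.06 (1) and low dap 1.63 (0.201). With only the arrays compared the ElkSapKO response of 1.94 was not called, nor was the SapKO response of 1.81 in arrays of high dap. The averaged difference of Cd6 was called at 0.63 with array weights, at 0.50 with mouse as a fixed (0.0275) or random (0.0312) replicate block and at 0.60 without both arrays of ElkSapKO mouse 2; single arrays gave 0.42 to 0.57. Cd2 was called at 0.23 with array weights. The averaged rise of Cd27 ran from 0.32 to 0.40 over single arrays. In arrays of high dap alone Cd27 (0.29) and Cd28 (0.42 and 0.60) were not called. Among members the block changed no call beside Cd6 and 1417597_at of Cd28 in SapKO; Cd5 in WT stayed just under the threshold with it (adjusted p = 0.0496). Over all probe sets 654 were called in the averaged response, against 264 with 1 probe set per gene, 297 with probe sets averaged, 2443 with array weights, 1082 and 1004 with the fixed and random block, 119 in arrays of high dap, 1074 without both arrays of ElkSapKO mouse 2 and 539 to 1216 over single arrays. In ElkSapKO against WT the count was 2404 untreated (344 to 10282 over single arrays, 15241 with array weights, 2 at high dap) and 2864 after anti-CD3 (529 to 5811). Responses by genotype called 115 in SapKO (74 to 179 when single arrays were left out), 68 in ElkKO (36 to 108), 116 in ElkSapKO (65 to 229) and 113 in WT (71 to 192). With ElkKO mice 1 and 2 exchanged, the lowest ElkKO change of Cd6 was 0.11, not −0.02. Causes were not tested. Group size (3 mice) and signal near background limit these arrays.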

Other observations

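The mean Cd5 change was nominally larger in the 6 mice without Sap (SapKO and ElkSapKO) than in the 6 with Sap (ElkKO and WT). This comparison was added after the values were seen and did not pass the test. In ElkSapKO the mean signal was below WT both untreated (5.95 against 7.10) and after anti-CD3 (7.89 against 8.54). The changes ran from 1.62 to 2.66 log2 without Sap and from 0.48 to 2.43 with Sap, and the response differed by 0.88 ± 0.28 (95% interval 0.30 to 1.46). With limma the unadjusted p was 0.00494 and the adjusted p 0.964, so it did not pass, and its rank by p was 37 of 45037 probe sets. Leaving out single arrays gave 0.73 to 1.01. Within the arrays of high dap, where SapKO and WT have 1 mouse each, the difference was 0.86. For 1437025_at of Cd28 the same comparison gave 0.46 ± 0.18 (adjusted p = 0.964), and for Cd27 it gave 0.00 ± 0.16 (adjusted p = 1). By Elk, the response of Cd5 without it differed by −0.37 ± 0.28 (adjusted p = 0.998). Over all probe sets limma called 1 by Sap and 0 by Elk.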
